A study of Mus musculus with 12 samples.

Results

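The 10 genes described here encode proteins that hold, make, receive or limit transforming growth factor beta (TGF-beta): Lrrc32, Nrros, Tgfb1, Tgfb3, Tgfbr1, Tgfbr2, Smad3, Smad7, Skil and Tgfbi. They were selected from 19938 measured genes because Lrrc32 and Nrros shifted in opposite directions after lipopolysaccharide (LPS) in these same arrays, dendritic cells against macrophages, and because the other 8 belong to the same pathway. Each of the 10 had 1 probe set with a single gene symbol, so no choice between probe sets was needed. The LPS responses therefore chose the genes, and those of all 10 are given as a description with no test. Lrrc32 and Nrros were also given no test between the cell types, since their whole pattern was the reason for choosing them.

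RNA was measured on 12 Affymetrix Mouse Gene 1.0 arrays of cells from mouse marrow (strain written as C57B/6 in the labels; tibia and femur), all of which had spent 6 days with 20 ng/ml recombinant GM-CSF, a cytokine that drives myeloid growth. The 4 groups held 3 arrays each: cells labelled dendritic (GM-DC) without stimulus, GM-DC given LPS, cells labelled macrophage (GM-MF) without stimulus, and GM-MF given LPS. LPS, a bacterial ligand of Toll-like receptor 4, was applied at 10 ng/ml for 4 hours. The labels give neither the age nor the sex of the mice, nor how the cell types were separated, nor whether arrays of a group came from separate mice or cultures, so each p-value reflects array-to-array spread alone, and that spread may be technical.

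TGF-beta is secreted in a latent form, wrapped in its own propeptide, and has to be released before it can bind. GARP, the product of Lrrc32, and NRROS (also LRRC33), the product of Nrros, are related membrane proteins with leucine-rich repeats that tether the latent complex to the cell that makes it: GARP is best known from activated regulatory T cells and platelets, NRROS from macrophages and microglia. Released TGF-beta brings together the receptors TGFBR2 and TGFBR1, which phosphorylate SMAD2 and SMAD3, while SMAD7 and SKIL hold the signal back.

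Between the cell types, markers of both followed the labels. The mean log2 level of 6 dendritic cell markers (Flt3, Zbtb46, Ccr7, Fscn1, Kit and Dpp4) lay between 9.02 and 9.48 on the 6 GM-DC arrays and between 4.82 and 6.15 on the 6 GM-MF arrays. For 5 macrophage markers (Csf1r, Adgre1, Mertk, Fcgr1 and Cd14) the range was 5.70 to 6.24 in GM-DC and 9.67 to 10.11 in GM-MF. Some of these markers also moved with LPS, beside the responses of the 10 genes. In GM-MF 4 of the 6 dendritic markers passed upward with LPS (Ccr7 from 6.99 to 9.45, Fscn1 from 4.91 to 6.73; list mean from 4.96 to 5.92), and of the 5 macrophage markers 2 passed upward and 1 downward. In GM-DC 1 of the 6 dendritic markers passed downward, and of the 5 macrophage markers 3 passed upward and 1 downward. Of all genes 9.72% passed with LPS in GM-DC (5.23% higher, 4.49% lower) and 17.4% in GM-MF (6.54% higher, 10.8% lower). The part of the markers in the LPS responses of the 10 genes was not tested. Tnf, Il6, Il12b and Il1b, cytokine genes induced by LPS, passed the test upward in both cell types, by between 1.06 (Tnf in GM-MF) and 6.21 (Il6 in GM-MF) on the log2 scale. Levels are log2 RMA values, and a log2 difference is a difference of group means. The median gene of an array lay between 4.72 and 4.87, and no background call was made, so a fold against a level under that range is a ratio of signals. A log2 level compares arrays for 1 gene and does not rank genes, because probe sets differ in brightness. The number of arrays, 3 per group, limits the precision. In such bulk RNA, fewer cells of a type and less RNA per cell cannot be told apart.

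Both docking genes moved the same way as each other within a cell type and in opposite ways between the cell types. With LPS, Lrrc32 and Nrros were higher in GM-DC and lower in GM-MF. Both genes were also at a lower level in GM-DC than in GM-MF without LPS and at a higher level in GM-DC with LPS. On no array of a stimulated group did either gene overlap the unstimulated group of the same cell type. The genes were chosen for these shifts, and the share of all genes so separated was not computed. A lack of overlap, here or below, is therefore a description only.

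Lrrc32 read 4.71, 4.60 and 4.32 on the unstimulated GM-DC arrays and 6.47, 6.37 and 5.81 on the GM-DC arrays with LPS. In GM-MF it read 7.11, 7.63 and 6.80 without LPS and 5.47, 4.72 and 5.08 with LPS. The highest group was thus unstimulated GM-MF, followed by GM-DC with LPS, GM-MF with LPS and unstimulated GM-DC, and no neighbours in this order overlapped. The difference with LPS was 1.67 ± 0.23 (standard error of the fit, n = 3 arrays against 3) in GM-DC, a 3.18-fold higher signal, and -2.09 ± 0.23 in GM-MF, a 4.26-fold lower one. The mean of the unstimulated GM-DC arrays, 4.54 ± 0.20 (SD, n = 3), lay under the median gene of the arrays, so the 3.18-fold value and the 6.22-fold lower signal against unstimulated GM-MF are ratios of signals whose lower side was not shown to exceed background. The LPS responses differed between GM-DC and GM-MF by 3.76 ± 0.32 on the log2 scale.

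Nrros read 7.71, 7.79 and 7.92 on the unstimulated GM-DC arrays and 8.89, 9.08 and 8.61 with LPS. In GM-MF the values were 8.43, 8.31 and 8.47 without LPS and 7.28, 7.24 and 7.11 with LPS. GM-DC with LPS stood highest, then unstimulated GM-MF, unstimulated GM-DC and GM-MF with LPS, again with no overlap between neighbours. The log2 difference with LPS was 1.05 ± 0.12 in GM-DC (2.08-fold higher, n = 3 against 3) and -1.20 ± 0.12 in GM-MF (2.29-fold lower), and the responses differed by 2.25 ± 0.17. Between the cell types, Nrros was 1.51-fold lower in GM-DC without LPS and 3.14-fold higher in GM-DC with LPS. The orders of the groups were therefore not the same for the 2 genes: GM-DC with LPS was the top group for Nrros and the second for Lrrc32, and the bottom group was stimulated GM-MF for Nrros and unstimulated GM-DC for Lrrc32.

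**Figure D1:**
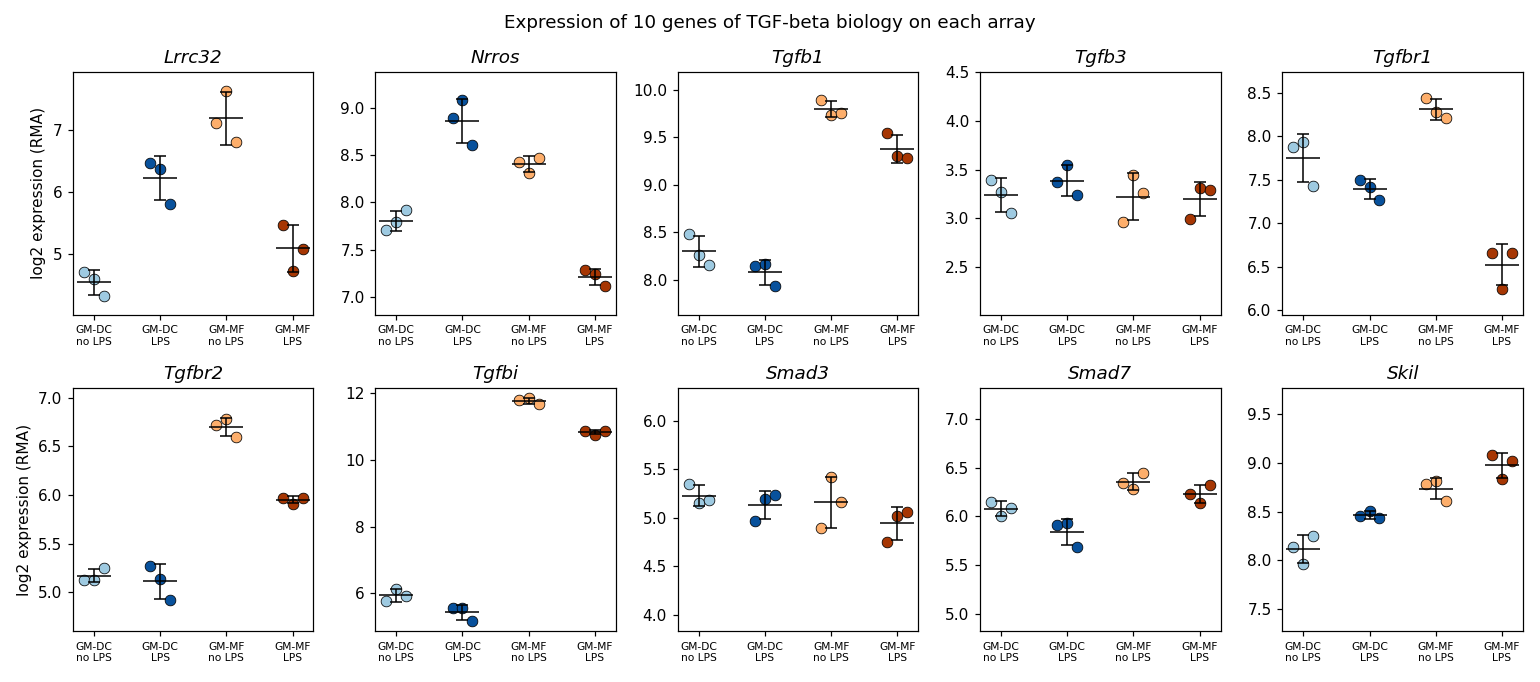
Log2 RMA expression (y axis, log2 units, each panel spanning its own range) of the 10 genes on each of the 12 arrays, with GM-DC in blue and GM-MF in orange, the stimulated groups in the darker shade; lines mark the mean of 3 arrays and bars 1 SD. Lrrc32 and Nrros are higher with LPS in GM-DC and lower in GM-MF without overlap, Tgfbi lies between 5.17 and 6.14 in GM-DC and between 10.75 and 11.85 in GM-MF, and neighbouring groups of Tgfb3 and of Smad3 overlap.

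Cells outside the 2 labelled types that are known for GARP were followed through marker lists. The mean of 7 T cell and regulatory T cell markers lay between 4.54 and 4.67 in unstimulated GM-DC, 4.43 and 4.63 in GM-DC with LPS, 3.99 and 4.27 in unstimulated GM-MF and 3.96 and 4.12 in GM-MF with LPS. None of the 7 passed the limma test with LPS in either cell type (0 of 7 at an unadjusted p under 0.05 as well), and group means of Foxp3, the regulatory T cell factor, lay between 4.61 and 4.76 and those of Cd3e, a part of the T cell receptor complex, between 4.86 and 5.02. Between the cell types 2 of the 7 passed as higher in GM-DC, without and with LPS: Cd8a, also a marker of some dendritic cells, at 7.49 ± 0.20 (SD, n = 3) in unstimulated GM-DC and 4.40 ± 0.45 in unstimulated GM-MF, and Cd3g at 4.11 ± 0.08 and 3.69 ± 0.12. The mean of 5 megakaryocyte and platelet markers was 5.43 to 5.89 and 5.27 to 5.75 in GM-DC without and with LPS, against 6.78 to 6.89 and 6.44 to 6.62 in GM-MF. That gap was led by Pf4, a platelet chemokine, at 6.24 ± 0.58 (SD, n = 3) in unstimulated GM-DC and 11.42 ± 0.38 in unstimulated GM-MF. Ppbp (8.25 and 9.20) and Treml1 (4.94 and 5.32) were also lower in unstimulated GM-DC than in unstimulated GM-MF. Itga2b and Gp9 passed the test in none of the 5 comparisons. Between unstimulated GM-DC and GM-MF, Itga2b differed by 0.24 and Gp9 by 0.16. With LPS in GM-MF, 1 of these 5 markers passed, Ppbp, a platelet chemokine that was 1.72 ± 0.34 lower (log2; limma adjusted p = 0.00207); in GM-DC 0 of 5 passed (1 of 5 at an unadjusted p under 0.05). The mean of 6 endothelial markers lay between 3.85 and 4.07 in GM-DC and between 5.13 and 5.43 in GM-MF; with LPS 1 of the 6 passed upward in GM-DC, and 2 upward and 1 downward in GM-MF. Between the cell types without LPS, 3 of the 5 megakaryocyte and platelet markers and 3 of the 6 endothelial markers passed as lower in GM-DC, and 1 endothelial marker as higher. Of all genes 34.2% passed between the cell types without LPS and 36.3% with LPS. The shares of all genes that passed with LPS were 9.72% in GM-DC and 17.4% in GM-MF. The part of cells outside the 2 labelled types in the levels of Lrrc32 was not tested.

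RefSeq promoter sequences of assembly GRCm38.p6 were at hand for 6 of the 10 genes, with 7 start sites. They were scanned on both strands, over the 250 bases before each start, for the palindromic SMAD motif GTCTAGAC, which 0.167% of 32851 promoters held, for the shorter CAGACA (17.1%) and for the NF-kB motif (7.25%), which is bound by the factors that LPS activates. The Nrros promoter (chr16:32165595-32165844, minus strand) is shown because the gene changed sign between the cell types, and held none of the 3 motifs. A match or its absence describes these letters only. Each sequence here runs 5′ to 3′ toward the gene and is in lower case, with a motif, where found, in capitals.
Nrros: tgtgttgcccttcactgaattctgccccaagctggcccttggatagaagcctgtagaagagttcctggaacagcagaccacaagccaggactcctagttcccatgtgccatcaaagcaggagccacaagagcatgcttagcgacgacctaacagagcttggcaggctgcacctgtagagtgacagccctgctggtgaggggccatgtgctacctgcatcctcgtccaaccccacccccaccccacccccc

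Of the ligands, Tgfb1, the main isoform of immune cells, followed the cell type. It read 8.48, 8.26 and 8.16 in unstimulated GM-DC and 8.14, 8.17 and 7.93 with LPS, against 9.89, 9.74 and 9.76 in unstimulated GM-MF and 9.55, 9.30 and 9.28 with LPS. Each GM-MF array stood above each GM-DC array, whereas the GM-DC groups with and without LPS overlapped. Tgfb1 was 2.82-fold lower in GM-DC without LPS (log2 difference -1.50 ± 0.12, limma adjusted p = 5.1e-08) and 2.46-fold lower with LPS (-1.30 ± 0.12, adjusted p = 2.47e-07). The log2 differences with LPS were -0.22 ± 0.12 in GM-DC, where the arrays with and without LPS overlapped, and -0.42 ± 0.12 in GM-MF, where they did not.

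Tgfb3, a second TGF-beta isoform, stayed at low signal in every group. The 12 arrays ranged from 2.96 to 3.55, under the median gene of the arrays, and neighbouring groups all overlapped. It did not pass the test between the cell types without LPS (0.01 ± 0.14, limma adjusted p = 0.964) or with LPS (0.19 ± 0.14, adjusted p = 0.353), and the difference without LPS took the other sign without unstimulated GM-DC array 1 (-0.06) or 2 (-0.00) or unstimulated GM-MF array 1 (-0.12). The promoter of Tgfb1 (chr7:25686752-25687001, plus strand) is shown for its NF-kB motif, in capitals, from 140 to 131 bases before the start; these letters match the motif read on either strand.
Tgfb1: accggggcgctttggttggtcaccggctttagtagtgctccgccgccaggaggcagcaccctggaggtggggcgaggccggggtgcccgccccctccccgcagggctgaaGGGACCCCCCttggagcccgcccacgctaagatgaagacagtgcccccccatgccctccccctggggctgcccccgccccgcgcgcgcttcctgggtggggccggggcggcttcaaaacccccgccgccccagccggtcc

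The receptor genes parted. Tgfbr2, the receptor that binds TGF-beta first, followed the cell type like Tgfb1, whereas Tgfbr1, the kinase that passes the signal to SMAD2 and SMAD3, lay on opposite sides in the 2 cell type comparisons. Tgfbr1 read 7.88, 7.94 and 7.43 in unstimulated GM-DC, 7.50, 7.42 and 7.27 in GM-DC with LPS, 8.44, 8.28 and 8.21 in unstimulated GM-MF and 6.66, 6.25 and 6.66 in GM-MF with LPS. The stimulated GM-MF arrays were the lowest of all and the unstimulated GM-MF arrays the highest, with both GM-DC groups, which overlapped each other, between them. Without LPS Tgfbr1 was 1.47-fold lower in GM-DC (log2 difference -0.56 ± 0.15, limma adjusted p = 0.00679), and with LPS 1.83-fold higher (0.87 ± 0.15, adjusted p = 0.000178). The difference with LPS was -1.79 ± 0.15 in GM-MF, a 3.46-fold lower level, and -0.36 ± 0.15 in GM-DC. These values differed by 1.43 ± 0.21, the third widest gap among the 10 genes after those of Lrrc32 and Nrros.

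Tgfbr2 read 5.13, 5.13 and 5.25 in unstimulated GM-DC and 5.27, 5.14 and 4.92 with LPS, and 6.72, 6.78 and 6.60 in unstimulated GM-MF against 5.97, 5.91 and 5.97 with LPS. Only the GM-DC groups overlapped. It was 2.89-fold lower in GM-DC without LPS (-1.53 ± 0.10, limma adjusted p = 1.23e-08) and 1.79-fold lower with LPS (-0.84 ± 0.10, adjusted p = 9.22e-06). In GM-MF the level with LPS was 1.69-fold lower (log2 difference -0.75), and in GM-DC the log2 difference was -0.06. Both receptor genes were thus lower with LPS in the 3 GM-MF arrays than in each unstimulated GM-MF array. The upstream one of the 2 Tgfbr1 promoters in the RefSeq table (chr4:47352972-47353221, plus strand), shown for the gene that changed sides, held none of the 3 motifs; the other (chr4:47385966-47386215) held 1 CAGACA, from 203 to 198 bases before its start.
Tgfbr1: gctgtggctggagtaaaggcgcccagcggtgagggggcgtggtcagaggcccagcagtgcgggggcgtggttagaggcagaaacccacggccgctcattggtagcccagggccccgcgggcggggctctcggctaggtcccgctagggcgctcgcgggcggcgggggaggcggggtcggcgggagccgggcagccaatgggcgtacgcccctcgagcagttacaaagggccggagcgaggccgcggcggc

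Among the SMADs and inhibitors the differences were small. Smad3, the receptor-activated transcription factor, ranged from 4.75 to 5.42 over the 12 arrays, with overlap between all neighbouring groups. It did not pass the test without LPS (0.07 ± 0.14, limma adjusted p = 0.786; -0.06 without unstimulated GM-MF array 1) or with LPS (0.19 ± 0.14, adjusted p = 0.338). Smad7, which blocks the receptor, read 6.15, 6.00 and 6.09 in unstimulated GM-DC, 5.91, 5.93 and 5.69 in GM-DC with LPS, 6.34, 6.28 and 6.45 in unstimulated GM-MF and 6.23, 6.14 and 6.32 in GM-MF with LPS. It was 1.31-fold lower in GM-DC with LPS present (-0.39 ± 0.10, adjusted p = 0.00673).

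Without LPS the Smad7 difference, -0.27 ± 0.10, only just passed (limma adjusted p = 0.04997) and should be read as undecided. That call was lost without any 1 of 10 of the 12 arrays, all but unstimulated GM-MF array 2 and stimulated GM-DC array 3, with adjusted p between 0.053 and 0.175, and with the replicate number as a block (0.0591). The difference of Smad7 with LPS was -0.23 in GM-DC and -0.12 in GM-MF, the latter 0.02 after quantile normalization and 0.01 after cyclic loess.

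Skil, which encodes SnoN, a repressor that binds SMADs and is itself induced by TGF-beta, had higher values with LPS in both cell types. It read 8.13, 7.96 and 8.25 in unstimulated GM-DC and 8.45, 8.51 and 8.43 with LPS, then 8.78, 8.81 and 8.61 in unstimulated GM-MF and 9.08, 8.83 and 9.02 with LPS. The 4 groups followed each other without overlap, stimulated GM-MF highest. The GM-MF groups lay close, with 8.83 the lowest value with LPS and 8.81 the highest without. Skil was 1.54-fold lower in GM-DC without LPS (-0.62 ± 0.11, limma adjusted p = 0.000258) and 1.43-fold lower with LPS (-0.51 ± 0.11, adjusted p = 0.00124). Its log2 differences with LPS were 0.35 in GM-DC and 0.24 in GM-MF.

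Tgfbi, a secreted matrix protein named for its induction by TGF-beta, separated the cell types more than any other of the 10 genes. It read 5.77, 6.14 and 5.91 in unstimulated GM-DC and 5.56, 5.57 and 5.17 with LPS. In GM-MF the values were 11.79, 11.85 and 11.68 without LPS and 10.86, 10.75 and 10.87 with LPS. The 4 groups did not overlap, and each GM-DC array lay below each GM-MF array. Tgfbi was 57.0-fold lower in GM-DC without LPS (log2 difference -5.83 ± 0.13, limma adjusted p = 2.71e-13) and 42.0-fold lower with LPS (-5.39 ± 0.13, adjusted p = 6.64e-13). With LPS it was 1.93-fold lower in GM-MF (-0.95 ± 0.13) and had a difference of -0.51 ± 0.13 in GM-DC. Its promoter (chr13:56609336-56609585, plus strand), shown as that of the gene with the widest gap, held none of the 3 motifs.
Tgfbi: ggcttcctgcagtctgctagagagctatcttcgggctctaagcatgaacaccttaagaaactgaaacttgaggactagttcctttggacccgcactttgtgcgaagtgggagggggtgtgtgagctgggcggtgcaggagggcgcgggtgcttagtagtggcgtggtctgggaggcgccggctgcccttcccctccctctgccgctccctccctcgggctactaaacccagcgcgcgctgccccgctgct

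Of the 8 genes tested between the cell types, 6 passed without LPS, all lower in GM-DC: Tgfb1, Tgfbr1, Tgfbr2, Tgfbi, Smad7 and Skil. The count without LPS was 5 under the settings in which the undecided Smad7 missed the threshold. Among all genes 34.2% passed in that comparison, 18% higher and 16.2% lower in GM-DC. With LPS 6 of 8 passed, of which Tgfbr1 was higher and Tgfb1, Tgfbr2, Tgfbi, Smad7 and Skil were lower in GM-DC, against 36.3% of all genes (20.9% higher, 15.4% lower). The 8 genes were chosen with results of these arrays known, so their share is no independent evidence of a direction. The median log2 difference of the 8 was -0.59 without LPS and -0.45 with LPS, where the medians of all genes were -0.011 and 0.002.

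**Figure D2:**
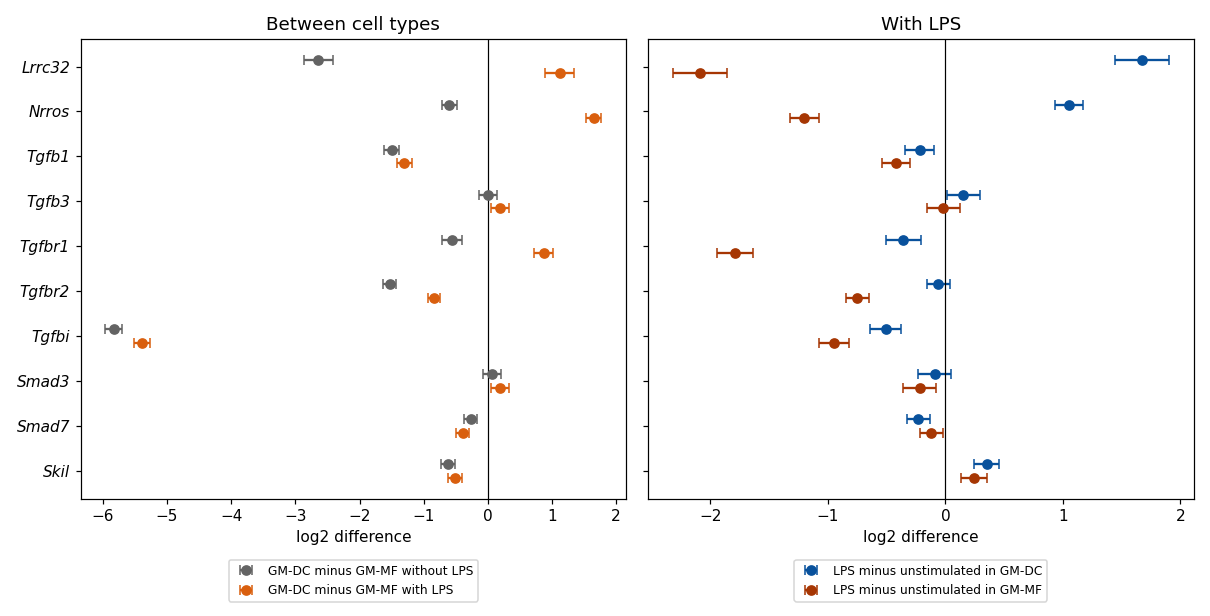
Log2 difference of group means (x axis, log2 units) for each of the 10 genes (y axis), between the cell types on the left and with LPS on the right; points are estimates of the limma fit and bars 1 standard error, 3 arrays per group. Lrrc32, Nrros and Tgfbr1 lie on opposite sides of 0 in the 2 cell type comparisons, and Lrrc32 and Nrros also in the 2 LPS comparisons (1.67 and 1.05 in GM-DC, -2.09 and -1.20 in GM-MF).

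The setting of these genes was followed through 7 lists of other pathway genes, of which 102 genes were analysed here. Without LPS 50 of the 102 passed between the cell types, 16 higher and 34 lower in GM-DC, with a median difference of -0.07; of all genes 34.2% passed there, 18% higher and 16.2% lower. With LPS 46 passed, 19 higher and 27 lower, median -0.06, against 36.3% of all genes, 20.9% higher and 15.4% lower. After cyclic loess the lists split 16 higher and 30 lower with LPS, and 48.7% of all called genes were higher in place of 57.6%. That share was 51.1% with each array centred on its median and 56.9% after quantile normalization. No balance of directions is therefore read from the comparison with LPS. Of 16 genes that release or store latent TGF-beta, 2 passed upward, 7 downward and 7 not at all in each comparison. Thbs1, a matrix protein that activates latent TGF-beta, was lower in GM-DC by 3.66 ± 0.34 (12.6-fold; limma adjusted p = 3.66e-07) without LPS and by 3.95 ± 0.34 with LPS, and Mmp14, a membrane protease, by 3.56 ± 0.20 without LPS. Itgb8, the integrin chain that frees TGF-beta from both docking proteins, was higher in GM-DC by 1.81 ± 0.26 without LPS (adjusted p = 4.56e-05), and Tgfb2, the third isoform, by 1.38 ± 0.17. With LPS Itgb8 did not pass (0.24 ± 0.26, adjusted p = 0.548). The 2 upward genes there were Tgfb2 (1.33 ± 0.17) and Itgav (0.83 ± 0.17).

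Other ligands and extracellular inhibitors passed in 4 of 18 cases (22.2%) in each comparison, all lower in GM-DC. Of all genes 34.2% passed without LPS and 36.3% with LPS. Most of the 18, such as Bmp2, Bmp4 and Nodal, had means under the median gene of the arrays in every group. The smaller share is therefore not read as a trait of this list. Inhba, which encodes the subunit of activin A, was lower by 4.86 ± 0.15 without LPS (limma adjusted p = 3.46e-12) and by 4.55 ± 0.15 with LPS. Fst, whose product follistatin binds activin, was lower by 4.71 ± 0.15 with LPS. Of 12 other receptors 9 passed without LPS, 3 higher and 6 lower, and 7 with LPS, 2 higher and 5 lower. Acvr1c, which encodes ALK7, was higher in GM-DC by 1.62 ± 0.21 and 2.01 ± 0.21, and Acvrl1, which encodes ALK1, lower by 1.28 ± 0.17 and 1.47 ± 0.17, without and with LPS.

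Of 14 SMADs and signalling partners, 3 passed upward and 1 downward without LPS (28.6%, against 34.2% of all genes), and 6 upward and 2 downward with LPS (57.1%, against 36.3%). Smad4, the shared partner of all receptor-activated SMADs, was 1.00 ± 0.09 higher in GM-DC without LPS (limma adjusted p = 2.68e-07), and Dab2, an endocytic adaptor that binds TGF-beta receptors, 1.54 ± 0.14 lower. Of 15 inhibitors and feedback genes, 4 passed upward and 6 downward without LPS (66.7%) and 4 each way with LPS (53.3%). The ubiquitin ligase genes Nedd4l and Smurf1 were higher in GM-DC, by 1.49 ± 0.16 and 0.76 ± 0.11 without LPS. Ldlrad4, whose product sequesters receptor-activated SMADs, was lower by 1.12 ± 0.10.

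Of 15 general targets of TGF-beta, 2 passed upward and 5 downward without LPS, and 3 each way with LPS. Fn1, the gene of fibronectin, was lower in GM-DC by 3.18 ± 0.23 (limma adjusted p = 2.61e-08) and Klf10 by 2.38 ± 0.11 without LPS. Itgae, the CD103 chain of tissue dendritic and T cells, was higher in GM-DC without LPS by 0.61 ± 0.13. Its means, 4.45 in unstimulated GM-DC and 3.84 in unstimulated GM-MF, both lay under the median gene of the arrays. Of 12 genes that depend on TGF-beta in tissue macrophages and Langerhans cells, 2 passed upward and 5 downward without LPS. That was 58.3%, against 34.2% of all genes. With LPS 2 passed each way (33.3%, near the 36.3% of all genes). Axl, a receptor for dying cells, was 3.50 ± 0.25 lower (adjusted p = 2.54e-08) and Tmem119, a microglial surface protein, 2.07 ± 0.17 lower in GM-DC without LPS. Runx3, a transcription factor needed for Langerhans cells, was 1.67 ± 0.16 higher. The members of this list thus lay on both sides.

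**Figure D3:**
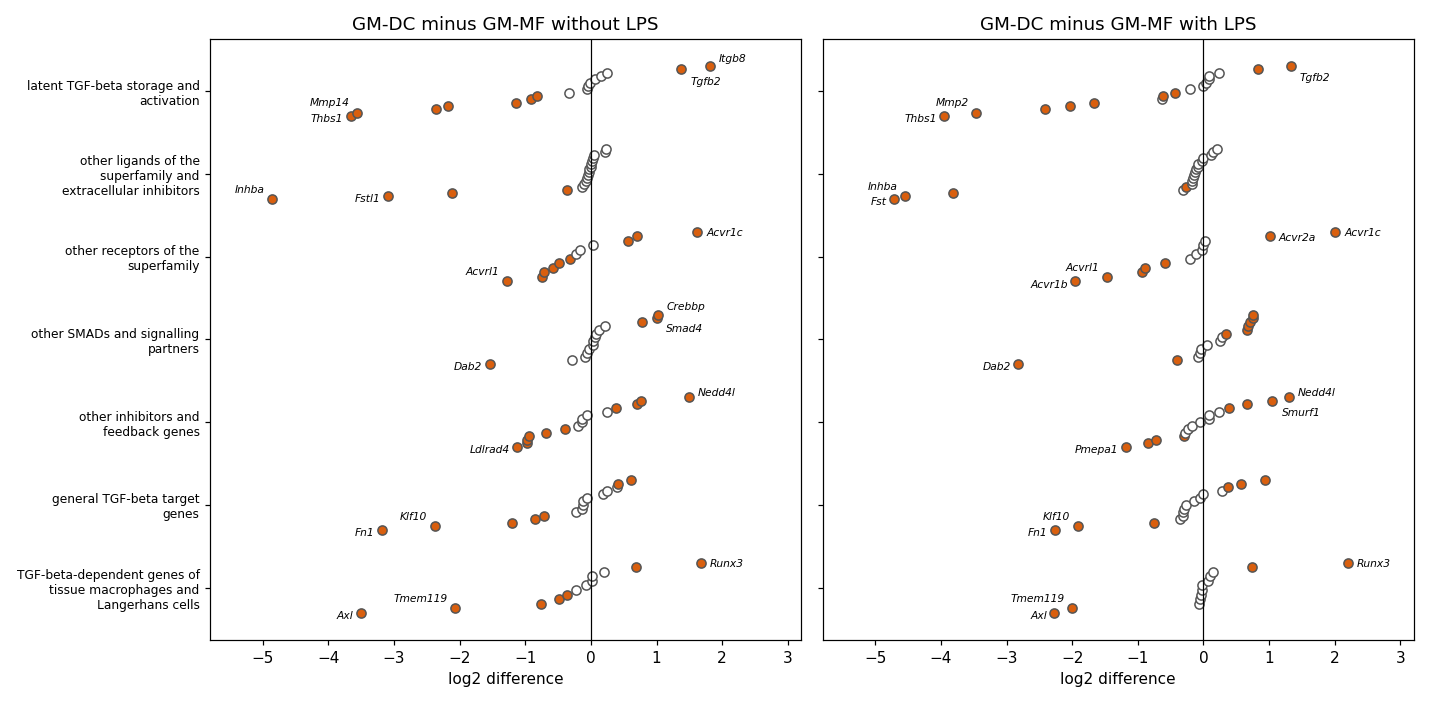
Log2 difference GM-DC minus GM-MF (x axis, log2 units) of the 102 other pathway genes in 7 lists (y axis, genes spread within a list by rank), without LPS on the left and with LPS on the right; orange points passed at an adjusted p under 0.05 (50 on the left, 46 on the right) and open points did not, and some of the outermost genes are named. Inhba lies at -4.86 and -4.55, Runx3 at 1.67 and 2.20.

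With LPS, fewer pathway genes passed. In GM-DC 12 of 102 did, 9 upward and 3 downward, where 9.72% of all genes passed (5.23% higher, 4.49% lower), so the share in the lists, 11.8%, was near that of all genes. In GM-MF 29 of 102 passed, 13 upward and 16 downward, against 17.4% of all genes (6.54% higher, 10.8% lower). After cyclic loess the split of these lists in GM-MF was 17 upward and 12 downward, and of all called genes in GM-MF 52.4% were higher in place of 37.7%, so no balance of directions is read from GM-MF. The same fractions apply to the 10 genes, but since the LPS responses chose them nothing is read from their count.

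Inhba rose in both cell types, by 1.52 ± 0.15 in GM-DC (limma adjusted p = 8.84e-06) and by 1.21 ± 0.15 in GM-MF. Id3, a repressor of helix-loop-helix factors and a target of the superfamily, fell by 2.26 on the log2 scale in GM-DC (adjusted p = 1.1e-06) and by 2.22 in GM-MF (9.49e-07). Pmepa1, a feedback inhibitor, rose by 1.07 ± 0.19 and 1.28 ± 0.19, and Pdgfb, a growth factor gene, fell by 0.76 and 1.81. Itgav, the integrin chain that pairs with Itgb8, rose by 1.62 ± 0.17 in GM-DC (adjusted p = 1.74e-05) and by 1.02 ± 0.17 in GM-MF (0.000604). In GM-DC Axl rose by 1.58 ± 0.25. None of the 14 SMADs and partners passed in GM-DC by limma (3 of 14 at an unadjusted p under 0.05). In GM-MF Furin, the protease that cleaves the TGF-beta precursor, rose by 1.85 ± 0.17 (adjusted p = 1.92e-06), Itgb8 by 2.27 ± 0.26 and Fst by 3.32 ± 0.15. Furin and Fst also rose in GM-DC, by 0.74 ± 0.17 (limma adjusted p = 0.00893) and 0.73 ± 0.15 (0.00515). Itgb8 did not pass there (0.70 ± 0.26, 0.127). The means of Itgb8 in unstimulated GM-MF and of Fst in unstimulated GM-DC, both 4.52, lay under the median gene of the arrays.

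The test of the difference between the LPS responses was passed by 15 of the 102 pathway genes, 7 with the higher response in GM-DC and 8 with the higher response in GM-MF, against 7.59% of all genes (4.53% and 3.06%). The count fell to 9 without unstimulated GM-DC array 2, to 8 without stimulated GM-DC array 1 and to 9 without stimulated GM-MF array 3, and was 25 (15 and 10) with the replicate number within each cell type as a block; with each array centred on its median it was 11, split 3 and 8. Fst, which responded by 0.73 in GM-DC and by 3.32 in GM-MF, differed by -2.59 ± 0.21 (limma adjusted p = 3.02e-06). Acvr1b, the activin receptor kinase ALK4, differed by -1.47 ± 0.18 (8.67e-05), with a response of 0.98 in GM-MF. Furin differed by -1.11 ± 0.23 (0.00761), Dab2 by -1.27 ± 0.19 (0.000628) and Smad5, a SMAD of the bone morphogenetic protein branch, by 0.77 ± 0.13 (0.00205).

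**Figure D4:**
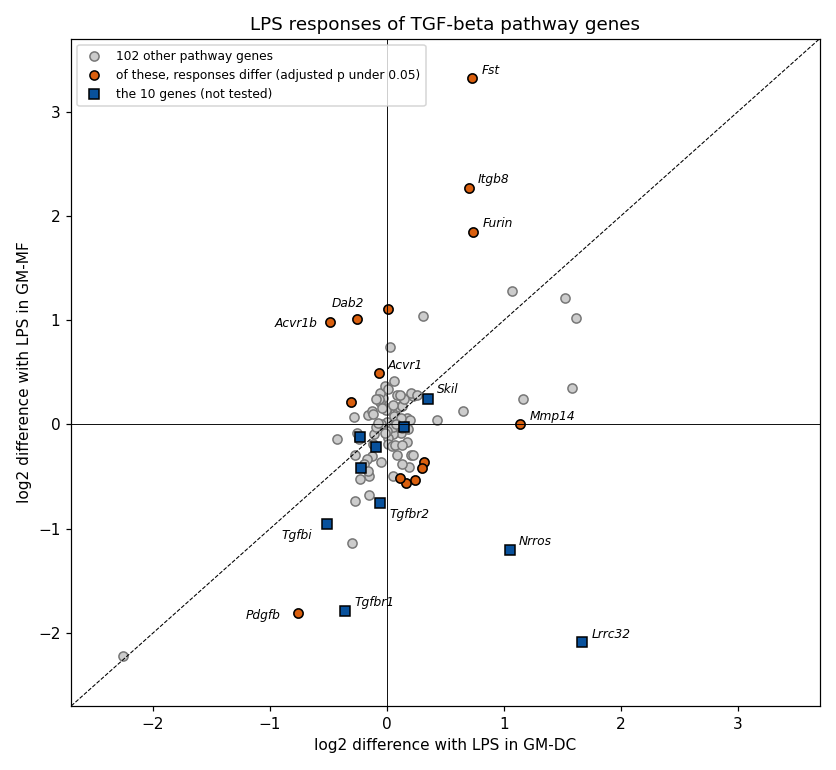
Log2 difference with LPS in GM-DC (x axis) against that in GM-MF (y axis), both in log2 units, for the 10 genes (blue squares, not tested) and the 102 other pathway genes (circles, orange for the 15 whose responses differed at an adjusted p under 0.05); the dashed line marks equal responses. Lrrc32 (1.67, -2.09) and Nrros (1.05, -1.20) lie at the lower right, and Fst (0.73, 3.32), Itgb8 (0.70, 2.27) and Furin (0.74, 1.85) at the upper centre.

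Likeness to each docking gene was ranked over 9610 genes with a mean at or above that of the median gene, with clone and model names left out. Most like Lrrc32 by Pearson correlation over the 12 arrays were Plcg2 (r = 0.942), Zfp608 (0.931), Rasa3 (0.929), Pik3cd (0.914) and Tfe3 (0.907). Plcg2 encodes a phospholipase C of immune receptor signalling, Pik3cd the leukocyte catalytic subunit of phosphoinositide 3-kinase, and Tfe3 a transcription factor of lysosome genes. Plcg2 had group means of 6.54 ± 0.28 (SD, n = 3) and 7.52 ± 0.43 in GM-DC without and with LPS, and 7.98 ± 0.08 and 6.81 ± 0.16 in GM-MF, the same order of groups as Lrrc32. Nrros stood at rank 316 of that list, with r = 0.654.

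Most like Nrros were Tuba4a (r = 0.968), Ncapg2 (0.963), Ppp1cc (0.943), Ube2q1 (0.941) and Ccnd1 (0.938). Tuba4a encodes an alpha tubulin, Ncapg2 a condensin II subunit and Ccnd1 cyclin D1. Ccnd1 had group means of 7.77 ± 0.36 and 8.86 ± 0.14 in GM-DC without and with LPS, and 8.23 ± 0.41 and 6.72 ± 0.21 in GM-MF. Lrrc32 stood at rank 569 of the list of Nrros. These correlations share the same arrays and groups, and are given as a description with no p.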

How the data were processed

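The table holds log2 expression as deposited, and RMA and R 3.0.2 are the tools listed in the submitters' processing notes; no label writes the log base, which was taken as 2 from the range of 1.18 to 13.7, and RMA settings and a genome build are not given in the sources used here. Of 35556 probe sets, 21789 had 1 symbol, 1621 several and 12146 none in the platform annotation, and the identifiers of 21698 were found in the RefSeq table of GRCm38.p6. Per gene the probe set with the highest mean over 12 arrays was used (999 genes had several), without further scaling or filtering. The number of arrays limits the precision.

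Differences were fitted with limma 3.58.1 in R 4.3.3 (group means on all 12 arrays, 8 residual degrees of freedom, moderated two-sided test, Benjamini-Hochberg adjustment over all genes of a comparison, threshold 0.05); the fit was tested on simulated data. The plan listed all 10 members for the cell type tests; Lrrc32 and Nrros were left out of them, as chosen for their pattern. Members, pathway lists and marker lists were chosen with earlier results of these data known. Named were the 10 members, per list and comparison up to 2 called genes with the largest difference each way, the 5 genes most correlated with Lrrc32 and with Nrros, and markers.

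Deviations from the group means of same-numbered arrays correlated between 0.119 and 0.363 in GM-DC and between 0.104 and 0.257 in GM-MF, without against with LPS, so the numbers pair arrays within a cell type by the data (each of 3 pairs above 0.1; the labels name no shared culture). Pairs of unlike number ranged from -0.25 to 0.164 and from -0.216 to 0.025, so GM-DC arrays 1 and 2 are not told apart by number. Between cell types they ranged from -0.168 to 0.156 in groups of like treatment and did not pair. Alternatives were 3 scalings, another probe set rule, a filter, the arrays in the fit, the variance model, the replicate block and each array left out; the block within each cell type was added after seeing the data.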

Additional observations from a re-analysis of the deposited data

Results flagged for a closer look

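The LPS responses of Lrrc32 (1.67 in GM-DC, -2.09 in GM-MF) and Nrros (1.05 and -1.20) lay in opposite directions, each stimulated array apart from all unstimulated arrays of its cell type, with differences of 3.76 and 2.25 on the log2 scale; these differences were not tested, because the genes were chosen for them.

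For other pathway genes the difference of the LPS responses, GM-DC minus GM-MF, passed limma's test at an adjusted p under 0.05. Those with the higher response in GM-MF were Fst (-2.59, adjusted p = 3.02e-06), Itgb8 (-1.57, 0.016), Acvr1b (-1.47, 8.67e-05), Dab2 (-1.27, 0.000628), Furin (-1.11, 0.00761), Mmp2 (-1.10, 0.0253), Acvr1 (-0.56, 0.0234) and Acvr2b (-0.53, 0.0273); Mmp2 and Acvr2b fall outside the rule for named genes and were added after their values were seen. Those with the higher value in GM-DC were Mmp14 (1.14, 0.0191), Pdgfb (1.05, 0.00102), Smad5 (0.77, 0.00205), Wwp1 (0.72, 0.0264), P2ry12 (0.72, 0.0272), Ski (0.67, 0.027) and Cx3cr1 (0.62, 0.0423). Pdgfb was lower with LPS in both cell types (-0.76 and -1.81).

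The calls of 8 of these genes were lost without single arrays. Mmp14 was lost without stimulated GM-DC array 1 or 2 (adjusted p 0.0527 to 0.0543). Acvr1 was lost without unstimulated GM-DC array 1 or 2, stimulated GM-DC array 2 or stimulated GM-MF array 1 or 3 (0.05033 to 0.0694). Wwp1 was lost without unstimulated GM-DC array 1 or 2, unstimulated GM-MF array 1, stimulated GM-DC array 1 or 2 or stimulated GM-MF array 2 or 3 (0.051 to 0.0736), and Ski without unstimulated GM-DC array 1, unstimulated GM-MF array 1 or 3, stimulated GM-DC array 1 or 2 or stimulated GM-MF array 3 (0.0621 to 0.0755). P2ry12 was lost without unstimulated GM-DC array 2, unstimulated GM-MF array 3, stimulated GM-DC array 1 or stimulated GM-MF array 1 or 3 (0.0618 to 0.0756). Cx3cr1 was lost without unstimulated GM-DC array 1 or 2, unstimulated GM-MF array 2 or 3, stimulated GM-DC array 1 or 2 or stimulated GM-MF array 1 or 3 (0.0751 to 0.103). Mmp2 was lost without unstimulated GM-DC array 1 or 2, unstimulated GM-MF array 2, stimulated GM-DC array 1 or stimulated GM-MF array 1 or 3 (0.0521 to 0.0719). Acvr2b was lost without unstimulated GM-DC array 1 or 2, unstimulated GM-MF array 3, stimulated GM-DC array 1 or stimulated GM-MF array 2 or 3 (0.051 to 0.0825), and with a variance trend (0.0644). With each array centred on its median, Wwp1 (0.0732), Ski (0.0716), P2ry12 (0.0595) and Cx3cr1 (0.0519) also missed the threshold. Cx3cr1 missed it too after quantile normalization (0.107), after cyclic loess (0.0522) and with a variance trend (0.0555).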

How the results depend on the processing

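Lrrc32 and Nrros kept their signs in all 5 comparisons under every setting tried. Both were chosen for their pattern in these same arrays, so this stability is no independent evidence of it. Without 1 array at a time, Lrrc32 ranged from 1.54 to 1.88 with LPS in GM-DC and from -2.28 to -1.87 in GM-MF, and Nrros from 0.94 to 1.18 and from -1.24 to -1.15; after cyclic loess Nrros was -1.10 in GM-MF, further from -1.20 than 1 SD between arrays. Of 108 named differences past the threshold, 95 stayed past it under every setting that held the gene and the comparison, and 13 did not. Genes with a mean under the median gene, such as Itgae and Acvr1c, were absent from the setting with a filter. The pathway genes called without 1 array at a time numbered 46 to 51 between unstimulated cells, 43 to 46 between stimulated cells, 10 to 13 with LPS in GM-DC, 23 to 31 in GM-MF and 8 to 21 for the difference of the responses. With the replicate block over all arrays the counts were 52, 45, 12, 29 and 17. With the replicate block within each cell type they were 13 in GM-DC, 34 in GM-MF and 25 for the difference; of the named calls, the blocks ended that of Smad7 without LPS (adjusted p = 0.0591) and that of Acvr1b with LPS in GM-DC (-0.49, 0.0519), and no other. Signs turned for values near 0: Smad7 with LPS in GM-MF, 0.02 after quantile normalization and 0.01 after cyclic loess; Tgfb3 between unstimulated cells, from -0.12 to 0.12 over the arrays left out, negative without unstimulated GM-DC array 1 (-0.06) or 2 (-0.00) or unstimulated GM-MF array 1 (-0.12); and Smad3 between unstimulated cells, from -0.06 to 0.20, negative without unstimulated GM-MF array 1. Smad7 without LPS also missed the threshold after centring (0.0746), quantile normalization (0.0852), in a fit of only the arrays compared (0.063) and with a variance trend (0.082). The cause was not tested. No filter of low signal by background was possible from these values, which limits what is known of Lrrc32 in unstimulated GM-DC and of Tgfb3. The same limit holds for other genes with group means under the median gene, such as Itgae and P2ry12 in every group and Tgfb2 and Acvr1c in GM-MF. Itgb8 in unstimulated GM-MF and Fst in unstimulated GM-DC are further cases.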
